A study of Mus musculus with 9 samples.

Results

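Collagen genes were read out of RNA sequencing counts from the cardiac outflow tract of mouse embryos at embryonic day 12.5. The family was taken as every gene symbol of the form Col, a number, a and a number, which selected 44 of the 48397 symbols in the count files. By the way their proteins assemble, 11 of the 44 were placed among the fibrillar collagens and 8 among the basement membrane collagens. A further 9 are fibril-associated collagens with interrupted triple helices (FACIT), and the remaining 16 are beaded filament, network-forming, anchoring, transmembrane and other types.

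Collagens are secreted as triple helices of alpha chains, each chain from its own gene. Fibrillar collagens such as types I, III and V polymerise into the fibrils that bear load in vessel walls and valves, FACIT collagens sit on the fibril surface, and type IV collagen forms the network of basement membranes under endothelium and around muscle cells. In the outflow tract, collagen is laid down by smooth muscle cells, fibroblasts and the mesenchyme of the endocardial cushions, the tissue that becomes the septum and the arterial valves.

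The 9 libraries came from C57BL/6J embryos. The 4 wild-type libraries carried Nkx2-5+/+, and the 5 deletion libraries were homozygous for loss of an enhancer that drives Nkx2-5, a cardiac transcription factor gene, in the anterior second heart field (Nkx2-5 delta-enh/delta-enh). The name of each count file also carries a number, read here as a litter, which is an assumption. Wild types 1 and 2 and deletions 1 and 2 share a number and are called litter A, and wild types 3 and 4 and deletions 3 and 4 share another and are called litter B. Deletion 5 has a number of its own, with the digits of litter B in another order. Each file name also holds a further number, after the letter n, whose meaning is not given. No label says that each sample is an embryo of its own, so the p-values speak for the spread among these libraries, part of which may be technical.

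Libraries held 27707435 to 49094225 counts assigned to genes. Levels are given in CPM, counts per 1000000 of the library size, scaled between libraries. Nkx2-5 itself stood at 18.8, 41.97, 44.99 and 39.5 CPM in wild types 1 to 4, against 16.5, 24.4, 17.8, 11.4 and 17.4 CPM in deletions 1 to 5, and wild type 1 lay within the range of the deletion libraries. Its log2 fold change was -1.05 (SE 0.26), with an edgeR adjusted p of 0.896 and an exact two-sided permutation p of 0.0238 over all 126 labellings. Markers of heart muscle, smooth muscle, endothelium and cushion mesenchyme were present in every library. In 3 libraries marker levels stood apart. Wild type 1 had the lowest sum of 10 heart muscle markers, 7840.4 CPM against 11363 to 18650.1 CPM, and the part of this in its Nkx2-5 level was not tested. Deletion 2 held 3153 CPM summed over 12 neuron and Schwann cell markers, against 77.3 to 137 CPM in the others. Cushion mesenchyme markers, 10 in all, summed to 1185 and 971 CPM in wild types 1 and 2, against 2099 to 2888 CPM in the others.

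Collagen transcripts were dominated by the chains of types I and III. In CPM per kilobase of the longest annotated coding transcript, the scale on which genes can be compared, Col3a1 averaged 1164, Col1a2 363 and Col1a1 298 over the 9 libraries. Col18a1 followed at 189.8; it encodes the basement membrane collagen from which endostatin is released. Next came Col5a2 at 93.3, a type V chain that helps to set fibril diameter, and Col9a1 at 78.2, a FACIT chain best known from cartilage. The type IV chains Col4a1 and Col4a2, found in nearly all basement membranes, stood at 74.4 and 40.5. Chains of type VI, which forms beaded filaments around cells, were led by Col6a1 at 57.3. Col1a1, Col1a2 and Col3a1 together made up 64.1% to 77.0% of all collagen counts in a library. The per-kilobase level of Col18a1 ranged from 119 to 257 between libraries and that of Col1a1 from 197 to 571, so their order was not the same in every library.

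The range of abundance within the family was wide. A mean of more than 100 CPM was reached by 14 of the 44 genes and a mean of at least 10 CPM by 26, while 10 genes had a mean under 1 CPM. The low group held the type IV chains Col4a3 and Col4a4, known from kidney and lung, and Col10a1, a marker of hypertrophic cartilage that had counts only in deletion 3. The low-count filter passed 40 of the 44 genes, and Col6a4, Col6a5, Col10a1 and Col20a1 were not tested between genotypes.

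**Figure D1:**
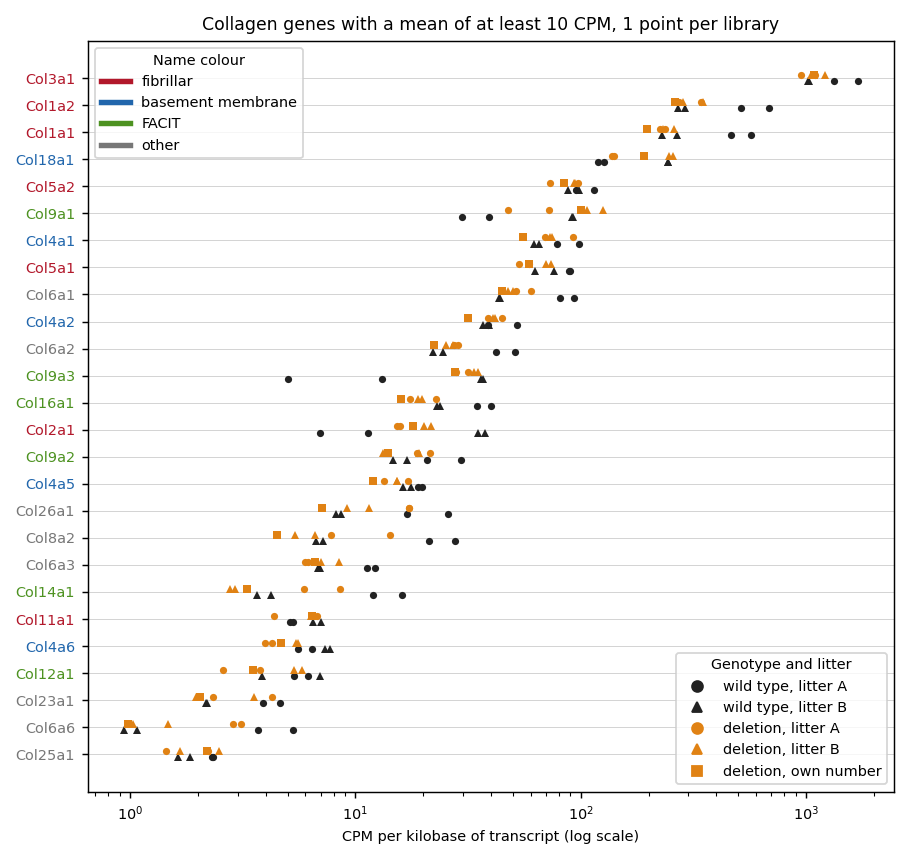
CPM per kilobase of the longest coding transcript (log axis) for the 26 collagen genes with a mean of at least 10 CPM, 1 point per library; colour gives genotype, marker shape the litter, and the colour of a gene's name its group. Col3a1 leads at a mean of 1164, and the black circles of wild types 1 and 2 stand apart from the other libraries for many genes.

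As a share of all gene-assigned counts, the 44 genes took 2.13, 1.76, 1.32 and 1.38% in wild types 1 to 4 and 1.36, 1.23, 1.36, 1.55 and 1.22% in deletions 1 to 5. Wild types 1 and 2 held the highest shares, and wild types 3 and 4 lay within the range of the deletion libraries. The mean share was 1.65 ± 0.374% (SD, n = 4) in wild type and 1.34 ± 0.131% (SD, n = 5) in the deletion, a difference of -0.303 percentage points, smaller than the wild-type SD. Without wild type 1 it was -0.143 percentage points. Most of it lay in the fibrillar group, whose mean share was 1.31 ± 0.379% in wild type and 1.03 ± 0.0978% in the deletion (SD, n = 4 and n = 5). Basement membrane collagens took 0.196 ± 0.0292% and 0.196 ± 0.0333%, and the FACIT group 0.0654 ± 0.00981% and 0.0676 ± 0.0118%. In these bulk samples, fewer cells of a type and less RNA per cell cannot be told apart.

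**Figure D2:**
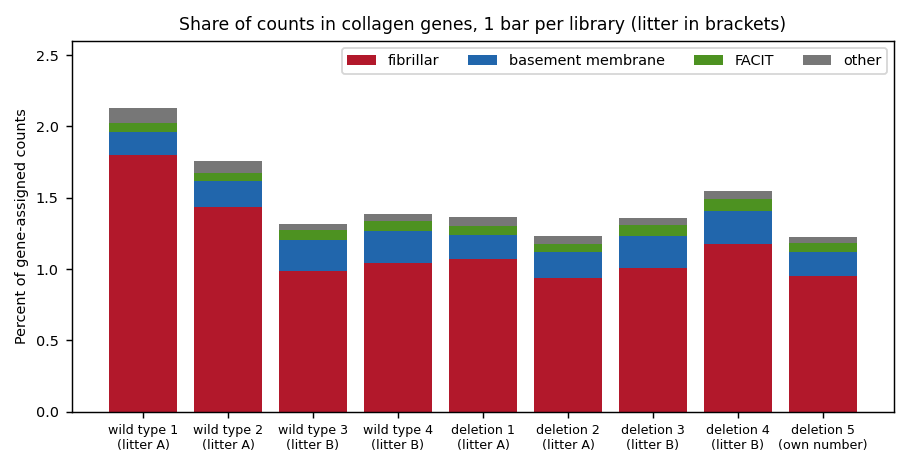
Percent of gene-assigned counts in the 4 groups of collagen genes, stacked, 1 bar per library with its litter in brackets. Wild type 1 reaches 2.13% and wild type 2 1.76%, and the other 7 libraries lie between 1.22% and 1.55%.

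The comparison of deletion with wild type asks whether loss of the enhancer changed collagen expression in the tissue it serves. No collagen gene passed an adjusted p of 0.05 among the 40 tested, by edgeR, DESeq2 or limma. Those tools called 0.0%, 0.225% and 0.0242% of all genes tested. At an unadjusted edgeR p under 0.05 there were 7 collagen genes, all lower in the deletion. Of all genes, 5.27% reached that level, 2.94% with lower and 2.32% with higher values. The 7 genes were Col1a1, Col5a1 and Col27a1 among the fibrillar collagens, Col4a5 and Col4a6 of the basement membrane, Col16a1 of the FACIT group and Col6a3. Log2 fold changes were below 0 for 31 of the 40 genes and above 0 for 9, with a median of -0.29 against 0.0029 over all 16522 genes tested. Without wild type 1 the median was -0.10, with 29 genes below 0. Without that library the 7 genes became 3 (background 5.82%), and without wild type 2 they became 4 (background 3.11%). Without wild type 3 there were 12 (background 5.62%) and without wild type 4 there were 13 (background 5.91%). Leaving out deletion 2 gave 8 (background 5.33%). These fits had no litter term. With litter as a covariate and deletion 5 read into litter B, Col6a3 no longer reached an unadjusted edgeR p under 0.05. Col14a1 and Col8a2 did, both lower, and so did Col9a1, which was higher in the deletion at 0.51 (SE 0.16).

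Of the 44 genes, 35 had a start site in the RefSeq promoter table. The 250 bases before it are shown for the most abundant gene, for the 2 genes of smallest unadjusted p between genotypes, and for a member in which the core of NKX2-5 binding sites occurs. That core, AAGTG, was searched on both strands (as CACTT on the strand printed) and is in capitals where found. All coordinates are GRCm38.p6, and each run is written 5′ to 3′ on the strand of its gene. The windows lie at chr1:45311288-45311537 (+) for Col3a1, chr4:130047590-130047839 (+) for Col16a1, chrX:141474077-141474326 (-) for Col4a6 and chr3:145292222-145292471 (+) for Col24a1. An exon of the noncoding RNA Gm12963, on the opposite strand, reaches into the Col16a1 window, and no annotated exon lies in the other windows shown.
Col3a1: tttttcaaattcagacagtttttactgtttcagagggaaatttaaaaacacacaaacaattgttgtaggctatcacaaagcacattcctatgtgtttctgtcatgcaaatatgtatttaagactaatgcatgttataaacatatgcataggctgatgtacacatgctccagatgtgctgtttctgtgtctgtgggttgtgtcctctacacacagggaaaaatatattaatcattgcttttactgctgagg
Col16a1: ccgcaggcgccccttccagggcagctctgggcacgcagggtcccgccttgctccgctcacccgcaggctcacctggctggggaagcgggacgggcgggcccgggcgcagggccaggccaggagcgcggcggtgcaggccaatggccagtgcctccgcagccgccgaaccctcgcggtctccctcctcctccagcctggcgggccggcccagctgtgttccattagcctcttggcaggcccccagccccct
Col4a6: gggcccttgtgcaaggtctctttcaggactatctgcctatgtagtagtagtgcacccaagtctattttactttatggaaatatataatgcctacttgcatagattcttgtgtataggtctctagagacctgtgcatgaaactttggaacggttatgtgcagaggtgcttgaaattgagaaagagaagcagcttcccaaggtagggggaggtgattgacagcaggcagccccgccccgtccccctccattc
Col24a1: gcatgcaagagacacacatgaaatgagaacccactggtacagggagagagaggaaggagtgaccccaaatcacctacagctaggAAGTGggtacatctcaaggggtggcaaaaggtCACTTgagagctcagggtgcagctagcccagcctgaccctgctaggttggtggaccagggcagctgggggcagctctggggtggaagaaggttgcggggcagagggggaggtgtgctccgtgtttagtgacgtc

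AAGTG was present in 15 of 38 collagen windows (39.5%), as in 40.7% of the 32851 windows in the whole table. None of the 6 genes with a window among the 7 at unadjusted p under 0.05 held it. TATAAA, searched on the strand of the gene, was in 5 collagen windows (13.2%), that of Col3a1 among them, and in 7.59% of all windows. CCAAT, searched on both strands, was in 13 (34.2%) and in 33.8%; the Col16a1 window holds one. A match of this length is a description of the letters, not a binding site.

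Among the fibrillar chains above 10 CPM, the type I genes had the largest log2 fold changes. Col1a1, which gives the alpha-1 chain of type I (chr11:94936224-94953042, + strand, GRCm38), stood at 3384, 2765, 1356 and 1586 CPM in wild types 1 to 4, against 1408, 1335, 1369.8, 1534 and 1169 CPM in deletions 1 to 5. Wild types 1 and 2 were far above the rest, and wild type 4 lay slightly above the highest deletion library. Wild type 3 lay within the range of the deletion libraries. The means were 2273 ± 964 CPM (SD, n = 4) and 1363 ± 132 CPM (SD, n = 5). The log2 fold change was -0.74 (SE 0.24), with an edgeR adjusted p of 0.896. Without wild type 1 it was -0.48 (SE 0.21). Col1a2, its partner chain, stood at 3654, 2744, 1450.4 and 1552 CPM in wild types 1 to 4, against 1826, 1464, 1521, 1859 and 1399 CPM in deletions 1 to 5, with a log2 fold change of -0.54 (SE 0.26). Col3a1, whose homotrimer runs in mixed fibrils with type I, stood at 9441, 7423, 5650.3 and 5730.1 CPM in wild types 1 to 4, against 6079, 5286, 5869, 6762 and 6059 CPM in deletions 1 to 5, with a log2 fold change of -0.23 (SE 0.16). The values of Col1a2 and Col3a1 were -0.25 (SE 0.21) and -0.060 (SE 0.13) with that library left out. For all 3 genes the 2 highest libraries were wild types 1 and 2, and the genotypes overlapped.

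The abundant type V chains showed smaller differences. Col5a1, the type V chain that nucleates type I fibrils, stood at 755, 743, 529 and 638 CPM in wild types 1 to 4, against 494, 448, 593, 623 and 497 CPM in deletions 1 to 5, and its log2 fold change was -0.33 (SE 0.14). Deletions 3 and 4 lay above wild type 3. Col5a2, its partner in type V, stood at 760.1, 634, 580.4 and 651 CPM in wild types 1 to 4, against 645, 485, 619.9, 625 and 561 CPM in deletions 1 to 5. Its genotypes overlapped as well, with a log2 fold change of -0.16 (SE 0.11), and of -0.083 (SE 0.11) without wild type 1. Col27a1, a minor fibrillar chain best known from cartilage, was low throughout, at 10.4, 8.77, 8.11 and 7.29 CPM in wild types 1 to 4, against 6.48, 6.73, 6.46, 6.41 and 3.85 CPM in deletions 1 to 5. Every deletion library lay below every wild type, with a log2 fold change of -0.53 (SE 0.21) and an edgeR adjusted p of 0.896. Across the 11 fibrillar genes, 9 had a log2 fold change below 0 and the median was -0.33.

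The type IV chains were of 2 kinds. Col4a1 stood at 520.0, 650.1, 411 and 433 CPM in wild types 1 to 4, against 459.9, 612, 492, 485 and 366 CPM in deletions 1 to 5. Col4a2 stood at 249.9, 336, 238 and 252 CPM in wild types 1 to 4, against 251, 288, 264, 269.7 and 205 CPM in deletions 1 to 5. The genotypes overlapped for both, with log2 fold changes of -0.060 (SE 0.17) and -0.076 (SE 0.13). Without wild type 2 they were 0.086 (SE 0.16) and 0.049 (SE 0.12), of the other sign. Col4a5 and Col4a6, which assemble with each other in the basement membrane of smooth muscle, differed more. Their genes lie head to head on the X chromosome with 1342 bases between the RefSeq starts. Col4a6 (chrX:141165403-141474076, - strand) stood at 36.99, 42.9, 48.7 and 51.3 CPM in wild types 1 to 4, against 26.4, 28.5, 36.2, 36.8 and 31.05 CPM in deletions 1 to 5, so every deletion library lay below every wild type, by a narrow margin between deletion 4 and wild type 1. Its log2 fold change was -0.50 (SE 0.14), with an unadjusted edgeR p of 0.00391 and an adjusted p of 0.896. Col4a5 stood at 129, 123, 106 and 115 CPM in wild types 1 to 4, against 87.4, 112, 99.6, 100.1 and 77.8 CPM in deletions 1 to 5, with a log2 fold change of -0.31 (SE 0.11), and deletion 2 alone among the deletion libraries reached the wild-type range. Col4a3 and Col4a4 held 0 to 3.23 CPM and 0.0968 to 1.57 CPM. Smooth muscle markers, 8 in all, summed to 3886 to 4243 CPM in wild type and 2543 to 3865 CPM in the deletion; their part in these differences was not tested. Col18a1 had a log2 fold change of 0.085 (SE 0.28), which turned to -0.074 (SE 0.28) without wild type 1 and to -0.058 (SE 0.29) without wild type 2. The median over the 8 basement membrane genes was -0.10. It was -0.059 without wild type 1, -0.020 without wild type 2 and -0.27 without deletion 2.

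Among the FACIT genes, Col16a1 and Col9a1 pointed in opposite directions. Col16a1, whose protein associates with fibrils and microfibrils (chr4:130047840-130099283, + strand), stood at 207, 180.0, 119.5 and 124 CPM in wild types 1 to 4, against 118, 91.3, 98.6, 103 and 82.9 CPM in deletions 1 to 5, and all 5 deletion libraries lay below all 4 wild types. The means were 158 ± 42.9 CPM (SD, n = 4) and 98.8 ± 13.3 CPM (SD, n = 5). Its log2 fold change of -0.67 (SE 0.17) had the smallest unadjusted edgeR p of the family, 0.00270, with an adjusted p of 0.896. Leaving out wild type 1 gave -0.51 (SE 0.16). Col9a1 stood at 150.2, 114, 351 and 354 CPM in wild types 1 to 4, against 277, 182, 407, 481 and 383 CPM in deletions 1 to 5, with a log2 fold change of 0.51 (SE 0.39) and overlapping genotypes. Without wild type 1 it was 0.34 (SE 0.41) and without wild type 2 0.28 (SE 0.36). Col14a1 had a log2 fold change of -0.94 (SE 0.50), and of -0.50 (SE 0.50) without wild type 1. The 8 FACIT genes tested had a median of 0.11, and of -0.14 without deletion 2 and -0.054 without wild type 2, so its sign turned with either library.

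Groups did not overlap for 3 of the 40 genes, Col4a6, Col16a1 and Col27a1, all lower in the deletion, where 1.8% of all genes tested did not overlap and 0.974% were lower without overlap. When libraries were blocked by replicate number, 3 collagen genes passed the adjusted threshold in DESeq2, against 0.43% of all genes. Same-numbered libraries deviated together from their genotype means, but they also share a litter. Their deviating together therefore cannot show that the numbers mark pairs, and the block is an assumption. Col4a6 had a blocked log2 fold change of -0.49 (SE 0.11) and a DESeq2 adjusted p of 0.00795, and Col16a1 of -0.58 (SE 0.15) with 0.0376. Col9a1 was higher, at 0.56 (SE 0.13) with 0.00823. The edgeR fit with the same block called none. In the block, deletion 5 has no partner and adds nothing to the estimate.

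**Figure D3:**
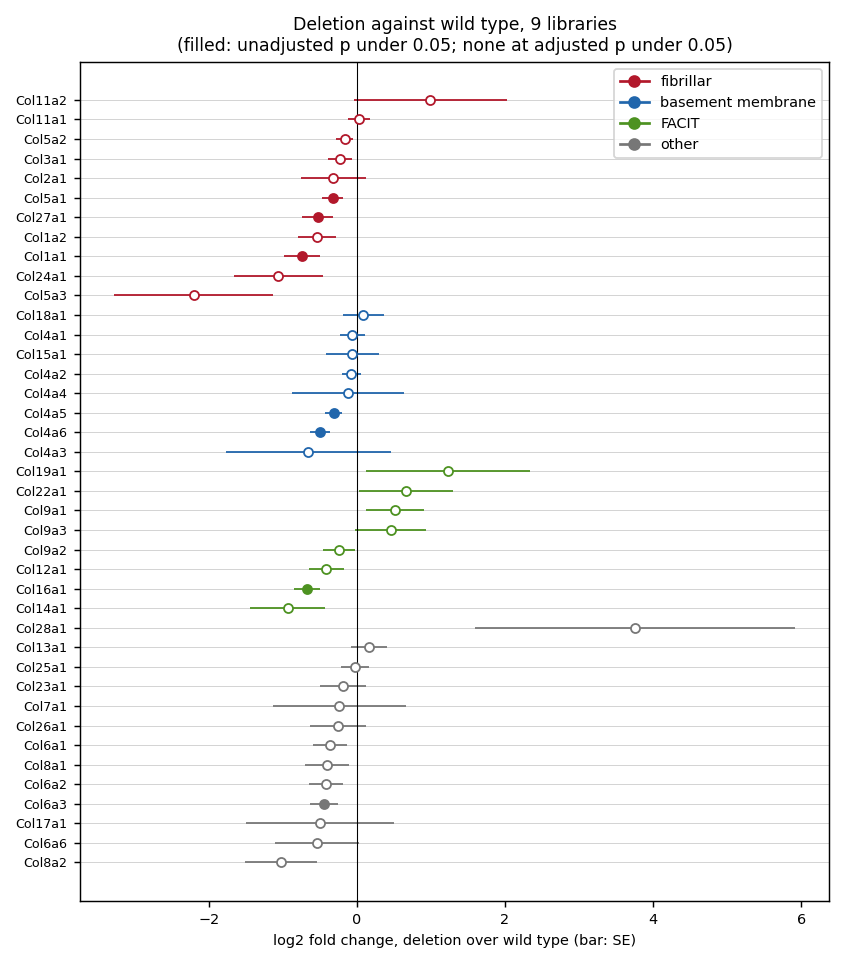
Log2 fold change of deletion against wild type for the 40 collagen genes tested, with standard errors from edgeR as bars, by group; filled points mark an unadjusted p under 0.05. Col1a1, at -0.74, and Col16a1, at -0.67, are among the 7 genes at an unadjusted p under 0.05, and no gene passes the adjusted threshold.

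Type VI collagen and the remaining types had no called gene either. Col6a3, the largest type VI chain, stood at 113, 123, 70.1 and 68.9 CPM in wild types 1 to 4, against 62.1, 60.2, 71.2, 85.3 and 66.8 CPM in deletions 1 to 5, with a log2 fold change of -0.44 (SE 0.19). The highest libraries were wild types 1 and 2, and deletions 3 and 4 lay above wild types 3 and 4. Its partner chain Col6a1 stood at 382, 331, 179 and 179 CPM in wild types 1 to 4, against 246, 212, 195, 206 and 183 CPM in deletions 1 to 5. Col6a2, the third of the main type VI chains, stood at 239, 196, 103 and 114 CPM in wild types 1 to 4, against 133, 128, 117, 126 and 104 CPM in deletions 1 to 5. Their log2 fold changes were -0.36 (SE 0.23) and -0.42 (SE 0.23), with the same 2 libraries highest. Without wild type 1 they were -0.14 (SE 0.20) and -0.18 (SE 0.19), and that of Col6a3 was -0.28 (SE 0.18) without wild type 2. Col8a2 had a log2 fold change of -1.03 (SE 0.48), and of -0.60 (SE 0.47) without wild type 1. Of the 13 genes tested in this group, 11 had values below 0, and the median was -0.36. With wild type 1 left out, 9 were below 0 and the median was -0.14.

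Since the wild types of litter A stood apart, the genotypes were also compared within each litter, 2 libraries against 2. The 2 comparisons share no library. Within litter A the median log2 fold change of the 43 collagen genes tested was -0.33, and 13 were lower and 4 higher at an unadjusted edgeR p under 0.05, where 7.16% of all genes reached that level, 3.78% lower and 3.38% higher. No collagen gene was called, as for all genes tested (0.0%). Within litter B the median of 38 genes was 0.050, with 5 lower and 2 higher against 7.66% of all genes, 4.08% lower and 3.58% higher. Col2a1, the fibrillar collagen of cartilage and of early valve mesenchyme, was the 1 collagen gene called within litter B, where 0.0369% of all genes were called. It fell by 0.79 on the log2 scale (SE 0.0781, edgeR adjusted p 0.0379). With deletion 5 added to litter B the call was lost, at -0.86 (SE 0.11) with an edgeR adjusted p of 0.112. Of 38 genes in both comparisons, 24 had opposite signs.

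The chains of types I, V and VI had log2 fold changes of larger size within litter A than within litter B. Col1a1 had a log2 fold change of -1.15 (SE 0.22) within litter A and -0.021 (SE 0.10) within litter B. For Col1a2 the values were -0.94 (SE 0.25) and 0.17 (SE 0.10), and for Col5a1 -0.65 (SE 0.17) and 0.056 (SE 0.10). For Col6a3 they were -0.93 (SE 0.15) and 0.17 (SE 0.11). Col4a6 had nearly the same value in both, -0.52 (SE 0.18) and -0.46 (SE 0.10), and Col16a1 was lower in both, at -0.87 (SE 0.19) and -0.28 (SE 0.0749). Col14a1 was also lower in both, at -0.94 (SE 0.25) and -0.47 (SE 0.14). Col9a1 was higher in both, at 0.82 (SE 0.26) and 0.33 (SE 0.0886).

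**Figure D4:**
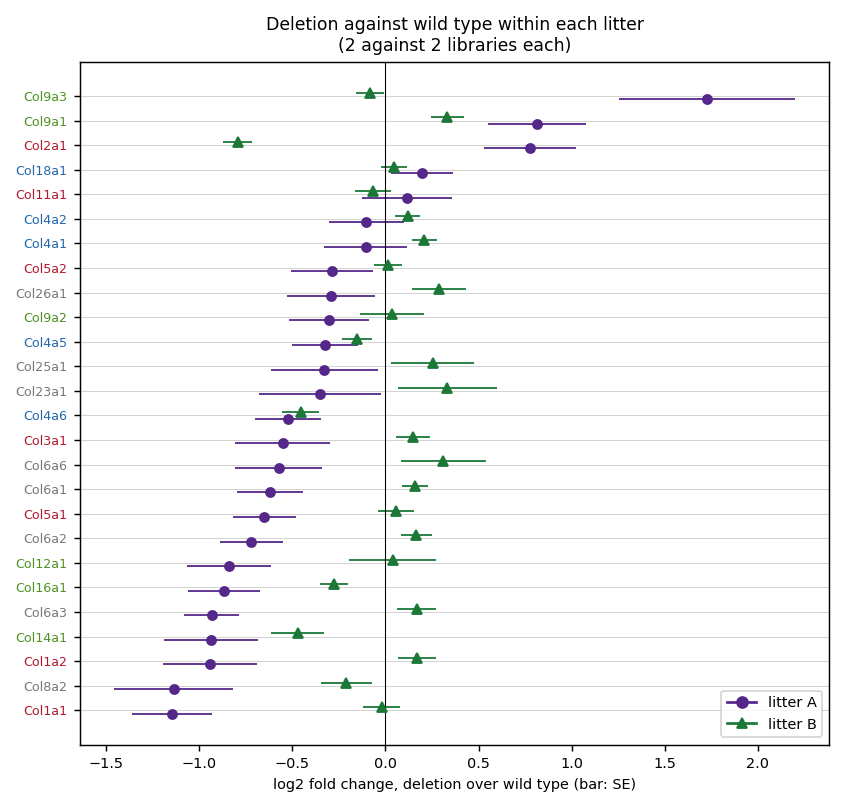
Log2 fold change of deletion against wild type (x axis, bars are standard errors from edgeR) for the 26 collagen genes with a mean of at least 10 CPM, within litter A (circles) and within litter B (triangles), from separate fits that share no library. Col1a1 lies at -1.15 in litter A and -0.021 in litter B, while Col4a6 lies at -0.52 and -0.46.

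The difference between the 2 genotype effects was tested as an interaction, positive where the deletion's effect was higher in litter B than in litter A. At an unadjusted edgeR p under 0.05 there were 11 collagen genes above 0 and 4 below, of 40, where 8.15% of all genes reached that level, 4.69% above 0 and 3.47% below. Of the 4 below, Col11a2 stood at no more than 0.752 CPM in any library. Another of the 4, Col28a1, stood at 14.3 CPM in deletion 2 and at 0 to 0.417 CPM elsewhere. Without deletion 4 the 15 collagen genes at that level became 9 (background 4.59%). None passed the adjusted threshold by edgeR or limma, which each called 0.0123% of all genes. With no low-count filter edgeR called 13 collagen genes, against 2.69% of all genes. DESeq2 called 8, against 1.06% of all genes. Col1a1, Col1a2, Col5a1, Col6a1, Col6a2 and Col6a3 had positive values, and Col2a1 and Col9a3 negative ones. Among them Col1a1 had an interaction of 1.14 (SE 0.21) with a DESeq2 adjusted p of 4.68e-05, and Col6a3 of 1.11 (SE 0.20) with 3.61e-05. The edgeR adjusted p of these 2 genes were 0.320 and 0.192. The median edgeR interaction over the family was 0.34, against -0.015 over all genes.

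The 2 genes with negative calls code for cartilage-type chains. Col2a1 stood at 35.7, 57.8, 179 and 192 CPM in wild types 1 to 4, against 80.3, 77.7, 111, 103 and 91.95 CPM in deletions 1 to 5. It was lowest in wild types 1 and 2 and highest in wild types 3 and 4, with all deletion libraries between, and its interaction was -1.56 (SE 0.29). The DESeq2 adjusted p was 7.70e-05 and that of edgeR 0.281. Col9a3, a type IX chain, stood at 40.00, 15.3, 110.3 and 112 CPM in wild types 1 to 4, against 96.2, 85.4, 107, 103 and 84.3 CPM in deletions 1 to 5, with an interaction of -1.80 (SE 0.46). Here the DESeq2 adjusted p was 0.0144 and that of edgeR 0.448. The 2 lowest libraries were again wild types 1 and 2. Its exons overlap those of Tcfl5 on the opposite strand, and with no strand setting given the reads of the 2 genes cannot be told apart there. Col11a2, a minor partner of type II in cartilage fibrils, had no count in wild types 1 and 2, which allows up to 0.0828 and 0.0741 CPM for counting error alone, and 0.214 to 0.752 CPM elsewhere. The 10 of 12 cartilage markers found in the files summed to 183 and 117 CPM in wild types 1 and 2 and to 332 to 687 CPM in the others. Of these markers none was at 0 in every library, Matn1 and Ucma were below 1 CPM in all, and Acan ran against the sum, at 22.8 and 16.6 CPM in those libraries and 1.99 to 8.17 CPM elsewhere. The part of such cells in the collagen values was not tested.

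Wild types 1 and 2 were both above every other library for 15 of the 40 collagen genes tested, where 8.53% of all genes tested showed that order, which was singled out after the values were seen. Deletion 2 was the highest library for 5, where 17.9% of all genes did so. Epicardial markers, 9 in all, summed to 1176 and 1233 CPM in wild types 1 and 2 and to 461 to 897 CPM in the others. The 8 macrophage markers summed to 274.3 and 300.4 CPM there and to 58.5 to 209 CPM elsewhere. Whether either cell type had a part in the collagen values was not tested.

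Between the litters, with genotype as a covariate and deletion 5 left out, 9 of 40 collagen genes were called by edgeR, 4 higher in litter B and 5 lower, where 9.94% of all genes were called, 5.59% higher and 4.35% lower. DESeq2 called 15, where it called 18.8% of all genes. The higher ones were Col18a1, Col9a1, Col2a1 and Col4a6. The lower ones were Col14a1, Col6a6, Col26a1, Col8a2 and Col6a1. Libraries of the 2 litters did not overlap for 12 of the 40 genes, where 19.7% of all genes did not. The count called was 4 without wild type 3, 4 without wild type 4 and 5 without deletion 3. The median log2 fold change was -0.26, against -0.028 over all genes.

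Col18a1 (chr10:77052178-77166548, - strand) had the smallest adjusted p of the family. It stood at 669, 708, 787 and 771 CPM in wild types 1 and 2 and deletions 1 and 2 of litter A, and 1366, 1366, 1381 and 1440.1 CPM in wild types 3 and 4 and deletions 3 and 4 of litter B. The litters did not overlap, and deletion 5 lay between at 1069 CPM. The means were 734 ± 55.2 CPM and 1388 ± 35.2 CPM (SD, n = 4 each). The log2 fold change was 0.92 (SE 0.0824), with an edgeR adjusted p of 0.00348. Within litters A and B the log2 fold changes of deletion against wild type were 0.20 (SE 0.17) and 0.044 (SE 0.0690). Col9a1 was higher, going from 181 ± 70.2 CPM to 398 ± 60.9 CPM (SD, n = 4 each), by 1.18 (SE 0.17) on the log2 scale with an edgeR adjusted p of 0.00787. Col2a1 was higher by 1.21 (SE 0.32), with an edgeR adjusted p of 0.0493 close to the threshold.

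Col4a6, the fourth of the higher genes, was higher by 0.37 (SE 0.0880), with an edgeR adjusted p of 0.0351. Its libraries overlapped between the litters, at 26.4 to 42.9 CPM in litter A and 36.2 to 51.3 CPM in litter B. The gene lay lower in the deletion within both litters.

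Of the genes lower in litter B, Col14a1, a FACIT chain found on fibrils of tendon, skin and other dense tissue, stood at 104, 77.4, 38.2 and 55.4 CPM in wild types 1 and 2 and deletions 1 and 2 of litter A, and 27.3, 23.7, 18.8 and 17.99 CPM in wild types 3 and 4 and deletions 3 and 4 of litter B. The litters did not overlap, and deletion 5, at 21.2 CPM, lay within the range of litter B. Its log2 fold change was -1.59 (SE 0.17), with an edgeR adjusted p of 0.00365. Col6a6, a type VI chain, stood at 46.6, 32.3, 25.2 and 27.2 CPM in wild types 1 and 2 and deletions 1 and 2 of litter A, and 9.39, 8.28, 9.02 and 12.97 CPM in wild types 3 and 4 and deletions 3 and 4 of litter B. The log2 fold change came to -1.71 (SE 0.23), and the edgeR adjusted p to 0.00688. Col8a2, which forms hexagonal networks under endothelia, stood at 120.2, 91.8, 28.9 and 30.99 CPM in wild types 1 to 4, against 61.5, 33.7, 23.4, 28.5 and 19.4 CPM in deletions 1 to 5. Its log2 fold change of -1.35 (SE 0.25) came with an edgeR adjusted p of 0.0156, and wild types 1 and 2 were the 2 highest libraries. Col26a1, one of the less studied collagens, stood at 71.9, 46.96, 48.04 and 47.9 CPM in wild types 1 and 2 and deletions 1 and 2 of litter A, and 24.1, 22.9, 25.6 and 31.9 CPM in wild types 3 and 4 and deletions 3 and 4 of litter B. The log2 fold changes of Col26a1 and Col6a1 were -1.04 (SE 0.17) and -0.60 (SE 0.16), with edgeR adjusted p of 0.0114 and 0.0478. The 7 macrophage markers called, of 8, were also lower in litter B, and 6 of 10 cushion mesenchyme markers were higher; their part in these values was not tested.

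**Figure D5:**
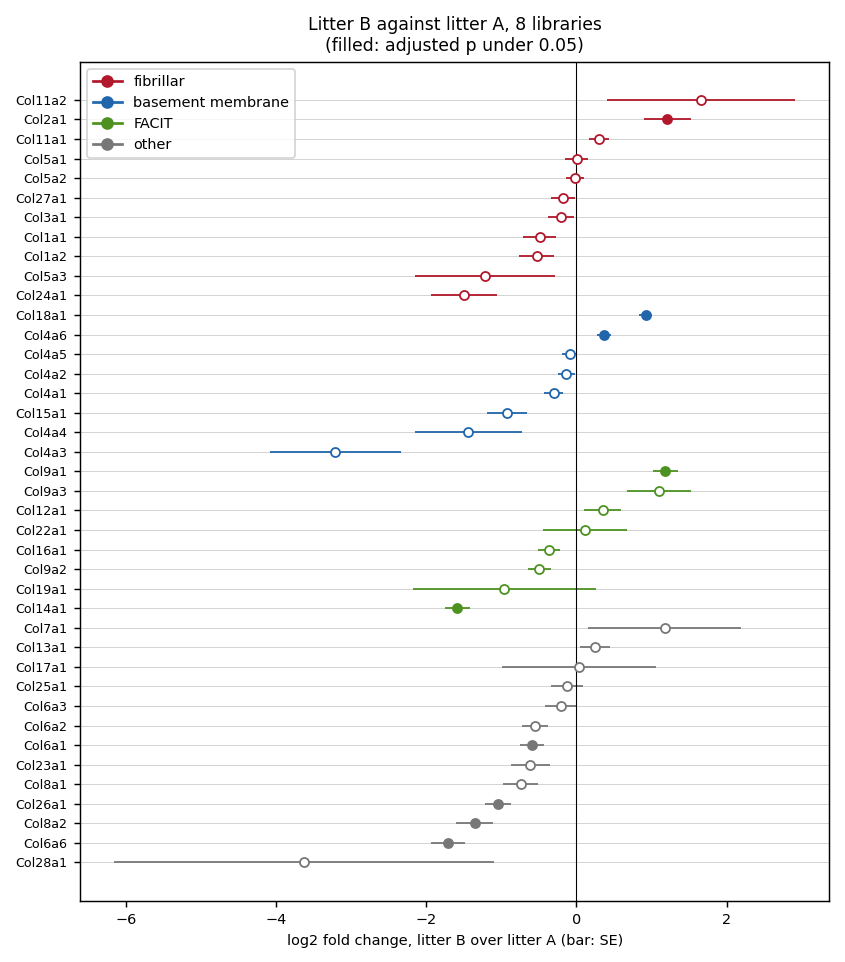
Log2 fold change of litter B against litter A (x axis, bars are standard errors from edgeR) for the 40 collagen genes tested, by group, with filled points for the 9 genes at an adjusted p under 0.05. Col18a1 lies at 0.92 and Col14a1 at -1.59.

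Ratios between chains, taken from per-kilobase levels, varied less for some pairs than for others. Col1a1 to Col1a2 was 0.835 to 0.922 in wild type and 0.695 to 0.822 in the deletion. The genotypes did not overlap, by a narrow margin between deletion 2 and wild type 1, and the difference was not tested. For every other pair given here the genotypes overlapped. Col6a1 to Col6a2 ran from 1.78 to 2.10. Col4a1 to Col4a2, which share a divergent start region, ran from 1.68 to 2.07. Col3a1 to Col1a1 was lowest in wild types 1 and 2, at 2.86 to 2.97, against 3.85 to 5.52 in the others. Col4a5 to Col4a6 ran from 2.22 to 3.98. Col18a1 to Col4a1 was 1.29 to 2.02 in litter A and 3.32 to 3.93 in litter B, with 3.45 in deletion 5. Col9a1 to Col9a2, chains of the same heterotrimer, varied most among these pairs, at 1.33 to 3.37 in litter A and 5.42 to 8.01 in litter B.

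Genes that fold, cut, crosslink and bind collagen were followed from lists of known roles, and none was called between genotypes by edgeR. In the list of 21 folding and modification genes, 4 were lower and 1 higher at an unadjusted p under 0.05, where 2.94% and 2.32% of all genes were, and these shares hold for the lists that follow too. The median log2 fold change was -0.12. Serpinh1, the collagen chaperone HSP47, stood at 1539, 1329, 1230.4 and 1228 CPM in wild types 1 to 4, against 911, 888, 1141, 1308 and 1096 CPM in deletions 1 to 5, with a log2 fold change of -0.32 (SE 0.13). The lysyl hydroxylase gene Plod1 had -0.26 (SE 0.10), the collagen galactosyltransferase gene Colgalt1 -0.32 (SE 0.11) and Creb3l1, a transcription factor of collagen secretion, -0.79 (SE 0.30). Creb3l1 stood at 49.95 and 40.6 CPM in wild types 1 and 2 and at 13.9 to 21.4 CPM elsewhere, and without wild type 1 its log2 fold change was -0.49 (SE 0.27). P4ha1, a prolyl hydroxylase subunit, had 0.37 (SE 0.16).

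Of 12 propeptide cleavage and crosslinking genes tested, the procollagen peptidase gene Adamts14 had a log2 fold change of -0.81 (SE 0.32) and the lysyl oxidase gene Loxl1 of -0.51 (SE 0.18), each lower at an unadjusted p under 0.05. Loxl1 stood at 246, 194, 132 and 138 CPM in wild types 1 to 4, against 124, 110.2, 125, 147 and 118 CPM in deletions 1 to 5, with wild types 1 and 2 highest, and its log2 fold change was -0.31 (SE 0.14) without wild type 1. The median of this list was -0.27, and -0.12 without wild type 1. Among 13 breakdown genes and inhibitors the collagen uptake receptor gene Mrc2, at -0.31 (SE 0.11), reached that level, and the list median was -0.19. None of 10 collagen receptor genes did, with a median of -0.055, and the most abundant, Itgb1, stood at 1495 to 1869.7 CPM. Of 14 fibril-associated matrix genes, Postn and Prelp were higher at that level, at 0.52 (SE 0.20) and 0.71 (SE 0.29), and Tnxb was lower, at -1.20 (SE 0.49), with a list median of -0.25. That median turned to 0.036 without wild type 1. Postn, which codes for the cushion matrix protein periostin and is itself among the cushion mesenchyme markers, stood at 521, 361, 693 and 776 CPM in wild types 1 to 4, against 999.6, 838, 804, 743 and 824 CPM in deletions 1 to 5. Wild types 1 and 2 were the 2 lowest libraries.

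Between the litters these lists held called genes in both directions, where 5.59% of all genes were called higher and 4.35% lower. The small proteoglycan genes Aspn, Ogn and Dcn were lower in litter B, with log2 fold changes of -2.23 (SE 0.23), -2.79 (SE 0.29) and -1.84 (SE 0.21), and Dcn, whose product decorin binds fibrils, stood at 401 to 945 CPM in litter A and 143 to 180.0 CPM in litter B. That list had 5 lower and 2 higher calls among 14. All 4 calls among the 21 folding genes were higher in litter B, led by P4ha2 at 0.57 (SE 0.0847), Plod3 at 0.51 (SE 0.0865) and P3h2 at 0.62 (SE 0.13). In the cleavage and crosslinking list, 4 were higher and 1 was lower among 12. The higher ones included Loxl2 at 0.81 (SE 0.13) and Pcolce at 0.57 (SE 0.12). Of the breakdown genes 2 were lower, Fap at -2.20 (SE 0.35) and Mmp16 at -0.93 (SE 0.23). Among receptors Itga2 was higher, at 1.37 (SE 0.28).

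For some scarce members, 1 or 2 libraries stood far above the rest. Col28a1, a type XXVIII chain known from peripheral nerve, stood at 14.3 CPM in deletion 2 and at 0 to 0.417 CPM in the other 8. Deletion 2 is the library with 3153 CPM summed over the neuron and Schwann cell markers; their part in the Col28a1 value was not tested. Without deletion 2 the gene did not pass the low-count filter. Col22a1, found at tissue junctions, stood at 13.3 CPM in deletion 2 and 1.01 to 6.41 CPM elsewhere, with a log2 fold change of 0.67 (SE 0.63), and -0.022 (SE 0.51) without that library. Col24a1, a fibrillar chain known from bone, stood at 22.1, 10.95, 3.81 and 2.52 CPM in wild types 1 to 4, against 8.15, 4.78, 3.37, 5.20 and 2.02 CPM in deletions 1 to 5, with a log2 fold change of -1.06 (SE 0.60) and wild types 1 and 2 as the 2 highest libraries. Leaving out wild type 1 gave -0.29 (SE 0.53).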

How the data were processed

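Outflow tract RNA was extracted on columns and made into low-input SMART-Seq libraries, per the labels. Each deposited file gives 1 library's whole-number counts by gene symbol. The submitters' processing notes name STAR 2.5.0c, Picard, HTSeq 0.6.0, DESeq2 and mm10. Annotation and strand setting: not given in the sources used here. Collagen genes that overlap a gene on the opposite strand (Col4a1 with Col4a2, Col9a3 with Tcfl5, Col10a1 with Nt5dc1, and Col4a2, Col4a3, Col5a1, Col6a4, Col6a6, Col15a1 and Col22a1 with genes not annotated as protein coding) may therefore hold its reads. The 5 rows naming no gene took 20.6% to 23.5% of reads and were dropped.

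Tests used edgeR 4.0.16 under R 4.3.3: robust quasi-likelihood, TMM factors (0.965 to 1.02), filterByExpr (at least 10 counts, smallest group 4), two-sided, Benjamini-Hochberg adjustment over all genes tested, threshold 0.05. CPM use TMM-scaled library sizes. Genotype was fitted over 9 libraries without covariates, and litter and its interaction with genotype over 8. Alternatives were DESeq2 1.42.0, limma 3.58.1 (voom, sample weights), other filters and scalings, each library left out, and a replicate block. Gene lengths and coordinates are from GENCODE vM21, promoter windows from RefSeq (GRCm38.p6). The edgeR fits of genotype, litter and interaction were tested on simulated counts. In that order, they called 10%, 38% and 2% of genes changed 1.5-fold, and 56%, 56% and 12% of genes changed 2-fold. Many changes of these sizes would thus go uncalled.

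Both genotypes carry replicate numbers. After subtracting genotype means, libraries with the same number correlated at 0.242, 0.137, 0.227 and 0.176 (numbers 1 to 4), and the numbers were taken as pairs. Numbers 1 and 2 belong to litter A and 3 and 4 to litter B, and litter means were not subtracted. Pairing by number and a shared litter therefore cannot be told apart.

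The members and lists were chosen with earlier results of these data known. Values per library are given for the 10 most abundant members, those at an unadjusted edgeR p under 0.05 for genotype or interaction, up to 12 called between litters, and tested chains of types I, III and IV. From the other lists, up to 4 genes at that level for genotype and up to 3 called between litters are named. Col9a2, Col22a1 and the marker Acan were chosen after their values were seen.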

Additional observations from a re-analysis of the deposited data

Results flagged for a closer look

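In 4 instances 1 library lay far from the rest of its genotype group, out of 54 groups tested, where chance alone gives about 1 in 20. Col28a1 in deletion 2 stood at 14.3 CPM, against at most 0.302 CPM in the other deletion libraries. Col4a2 in wild type 2 stood at 336 CPM, against 238 to 252 CPM in the other wild types, and Col4a3 in wild type 1 at 3.23 CPM, against 0.233 to 0.522 CPM. Col27a1 in deletion 5 stood at 3.85 CPM, against 6.41 to 6.73 CPM in the other deletion libraries.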

How the results depend on the processing

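The count of 0 collagen genes called between genotypes by edgeR stayed at 0 under other scalings, filters, limma, DESeq2, litter as a covariate and leaving out each library. With the replicate block, edgeR called 0 and DESeq2 3, and the edgeR interaction with the block called 0; the comparison of litters has no blocked fit, since replicate numbers nest in them. Within litter B there was 1 call, and 0 with deletion 5 added to it. DESeq2 leaving out each library, chosen after seeing the data, called 0 to 2: Col4a6 without wild type 1, Col16a1 and Col1a1 without wild type 3, and Col16a1 without wild type 4. Between the litters, the 9 calls became 15 by DESeq2 and 4 to 12 when 1 library was left out. For the interaction, 0 calls became 13 with no low-count filter (background 2.69%), 8 by DESeq2, and 0 to 1 with 1 library left out (Col9a3 without wild type 1, Col6a3 without deletion 1). The cause of these shifts was not tested. Among genes at an unadjusted p under 0.05 between genotypes, the log2 fold change turned sign within litter B for Col5a1 (0.056) and Col6a3 (0.17, and 0.10 with deletion 5 added to litter B). Nkx2-5 passed the adjusted threshold by DESeq2 with the block (-1.02, adjusted p 0.0241), without wild type 1 (-1.26, adjusted p 4.01e-05) and without deletion 2 (-1.20, adjusted p 0.00403). The difference in collagen share ran from -0.412 to -0.143 percentage points when 1 library was left out. Of the values of single genes, 499 kept direction and side of the threshold, 29 lost the threshold, 28 gained it and 3 changed sign. Of the counts of genes at an unadjusted p under 0.05, 49 stayed within 1.5 times and 10 did not. Genes under 1 CPM rest on few counts, and with 2 libraries against 2 the within-litter fits have little precision.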
